A study of Mus musculus with 2 samples.

Results

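Fc receptors are the 7 genes Fcgr1, Fcgr2b, Fcgr3, Fcgr4, Fcer1g, Fcgrt and Fcrls, taken by gene symbol from a whole-transcript GeneChip data set of mouse macrophages; all 7 were measured, each by 1 probe set, among 19505 named genes. The cells were grown from bone marrow in medium with 10% fetal bovine serum, given M-CSF, the factor that drives macrophage growth, on day 0 and again on day 3 (25 ng/mL each time), and were used from day 5. There were 2 samples, 1 array each. One sample had the genotype label LysM (+);MC4RTB/TB, written LysM (+) from here on, and the other the label MC4RTB/TB, written TB/TB. Both groups therefore carry the TB allele of MC4R, the melanocortin 4 receptor, on both copies, and they differ in LysM. In background terms, a TB allele is known as one that a cassette removable by Cre recombinase keeps silent, and the LysM locus (Lyz2) often serves to express Cre in myeloid cells; the labels spell out neither, nor strain, sex, age or the number of mice behind a sample. The study's title concerns melanocortin 4 receptor function in monocytes, and the comparison bears on which macrophage genes differ with LysM on this background.

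Fc receptors bind the constant part of antibodies and let macrophages take up antibody-coated particles. The activating receptors for IgG, Fc gamma receptors I, III and IV, signal through the FcR gamma chain (Fcer1g), whose ITAM motif recruits the kinase Syk once it is phosphorylated. Fc gamma receptor IIb (Fcgr2b) carries an ITIM motif instead, recruits the phosphatase SHIP-1 and opposes that signal, so the balance of activating and inhibitory receptors is known to set the threshold of a macrophage for immune complexes. The neonatal Fc receptor (Fcgrt) has a separate task: it pairs with beta 2 microglobulin and returns IgG and albumin from endosomes to the surface.

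The start regions of the activating receptor genes Fcgr1, Fcgr3 and Fcgr4 and of the inhibitory gene Fcgr2b are shown because the results turn on the balance between these genes. They are the 250 bases before the transcript start in the RefSeq table of GRCm38.p6, 5′ to 3′, with matches to 3 searched motifs in capitals; the RefSeq table lists 2 nearby starts for Fcgr3, and the first is shown.
Fcgr1, chr3:96293970-96294219, minus strand: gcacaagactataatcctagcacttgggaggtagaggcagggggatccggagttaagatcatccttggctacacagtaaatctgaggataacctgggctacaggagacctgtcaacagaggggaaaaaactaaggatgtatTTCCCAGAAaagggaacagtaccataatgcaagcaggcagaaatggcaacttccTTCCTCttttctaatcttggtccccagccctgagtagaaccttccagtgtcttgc
Fcgr3, chr1:171059404-171059653, minus strand: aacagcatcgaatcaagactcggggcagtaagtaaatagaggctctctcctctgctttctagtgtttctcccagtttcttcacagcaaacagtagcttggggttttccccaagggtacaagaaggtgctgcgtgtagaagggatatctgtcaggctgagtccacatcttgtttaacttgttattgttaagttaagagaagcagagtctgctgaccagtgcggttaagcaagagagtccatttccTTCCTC
Fcgr4, chr1:171018676-171018925, plus strand: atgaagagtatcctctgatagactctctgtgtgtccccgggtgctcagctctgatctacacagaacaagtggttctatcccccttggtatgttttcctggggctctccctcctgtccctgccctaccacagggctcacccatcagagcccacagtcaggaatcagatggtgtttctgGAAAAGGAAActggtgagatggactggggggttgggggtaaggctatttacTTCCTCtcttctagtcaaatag
Fcgr2b, chr1:170976072-170976321, minus strand: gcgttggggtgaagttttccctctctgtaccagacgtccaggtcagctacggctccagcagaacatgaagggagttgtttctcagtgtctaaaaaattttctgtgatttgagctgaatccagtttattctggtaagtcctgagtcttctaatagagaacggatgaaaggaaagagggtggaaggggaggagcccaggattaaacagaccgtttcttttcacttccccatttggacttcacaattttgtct
The motifs, searched on both strands, were GAGGAA, the core bound by the myeloid factor PU.1, TTCNNNGAA, the site of STAT dimers called GAS, and GAAANNGAAA, a core of the interferon-stimulated response element. The PU.1 core was present upstream of Fcgr1, Fcgr3, Fcgr4 and Fcrls, that is in 4 of the 7 genes, and in 23.3% of all 32851 start regions in the table. The start of the motif lay 55 bases before the Fcgr1 start, 6 before the Fcgr3 start and 22 before the Fcgr4 start. The GAS motif was found upstream of Fcgr1, 109 bases before the start, and of no other member, against 7.02% of all start regions. The response element core was found upstream of Fcgr4, 73 bases before the start, and of no other member, against 2.98% of all start regions. The Fcgr2b, Fcer1g and Fcgrt windows held none of the 3. A match is only a run of letters; the motifs do not overlap in these windows, and binding was not measured.

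All 7 genes were bright on both arrays and none was past 1.5-fold apart. Values are RMA expression values, read as log2, and differences are LysM (+) minus TB/TB. As each genotype had a single array, no replicate error and no test could be given, and the differences describe these 2 arrays. All 14 values of the 7 genes exceeded the highest of 23 background control probe sets, at 6.81. To count as differing, a gene needed a gap of 1.5-fold or more and a brighter value of 6.12 or more, the median of the named probe sets, here the floor. By this rule 0 of the 7 Fc receptor genes differed, whereas 16.1% of the 10137 genes above the floor did, 10.9% higher and 5.16% lower in LysM (+). Of the 1939 genes with a brighter value of at least 12, a range that holds every member except Fcgr4, 10.2% did. The values of the members were nonetheless tilted one way: 6 of the 7 were lower in LysM (+) by some amount, against 42.9% of genes above the floor and 40.2% of those at 12 or above. The 6 include Fcer1g, at only -0.0033. With centring on the median difference, quantile normalization or loess, 5 of the 7 were lower and 2 higher. The median difference of the 7 was -0.30, beside 0.07 over the genes above the floor and 0.08 over the genes at 12 or above. In RNA from a whole culture, fewer cells of a type and less RNA per cell cannot be told apart.

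**Figure D1:**
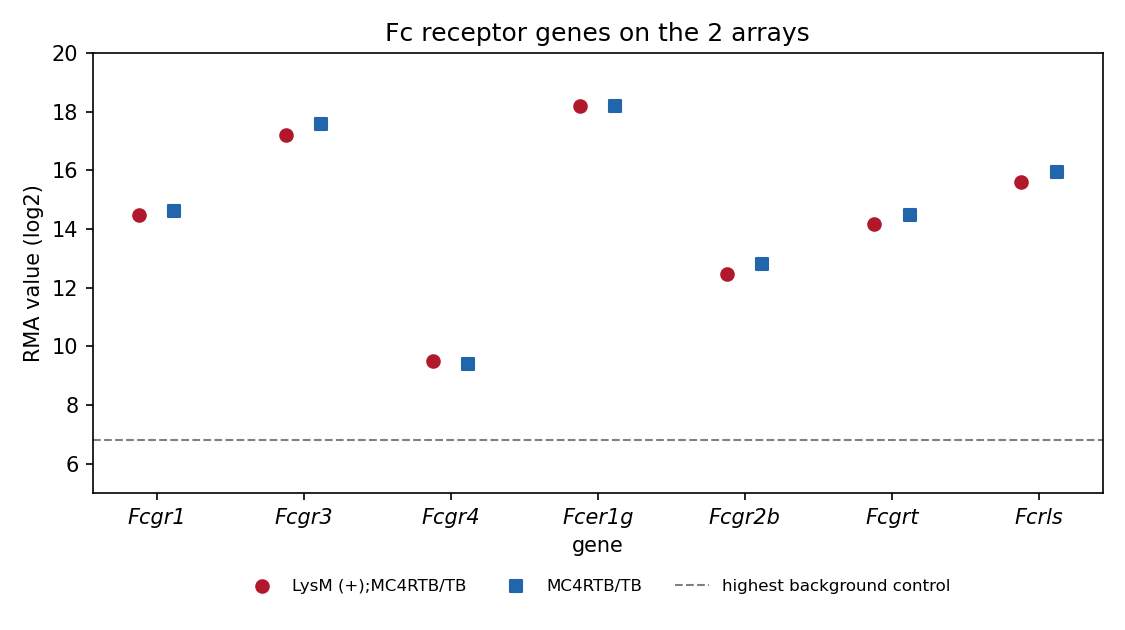
RMA values (log2, vertical axis) of the 7 Fc receptor genes on the LysM (+);MC4RTB/TB array (circles) and the MC4RTB/TB array (squares), 1 array each; the dashed line is the highest background control, at 6.81. Every gene lies above that line on both arrays, and the values of a gene differ by at most 0.38.

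Among the activating receptors, the 3 antibody-binding chains did not go together. Fcgr3, which encodes the low-affinity Fc gamma receptor III, had a value of 17.21 in LysM (+) and 17.59 in TB/TB macrophages, a difference of -0.38 or 1.30-fold lower. This was the most negative difference of the 7 genes. Fcgr1, which encodes the high-affinity Fc gamma receptor I, had 14.48 in LysM (+) and 14.62 in TB/TB, a difference of -0.14 or 1.10-fold lower. Fcgr4 encodes Fc gamma receptor IV, which binds IgG2a and IgG2b with intermediate affinity. It had 9.51 in LysM (+) and 9.41 in TB/TB, a difference of 0.10, and was the one member with a higher value in LysM (+). The Fcgr3 difference was matched or exceeded in size by 33.2% of genes above the floor, the Fcgr1 difference by 71.8% and the Fcgr4 difference by 79.0%. Fcgr1 and Fcgr4 thus lay well inside the bulk of all genes on these arrays, and Fcgr3 farther from zero.

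The shared signalling chain was level between the arrays. Fcer1g, needed for surface expression of the activating receptors, had 18.20 in LysM (+) and 18.20 in TB/TB, a difference of -0.0033, and 99.2% of genes above the floor differed by as much or more. Its values are near the top of the scale, which ended at 19.51 on both arrays, and the response of the array at that level was not tested. Relative to Fcer1g's own difference, Fcgr3 was the chain with the widest gap, 0.38 on the log2 scale.

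The inhibitory receptor gene had nearly the same difference as Fcgr3. Fcgr2b had 12.46 in LysM (+) and 12.81 in TB/TB, a difference of -0.36 or 1.28-fold lower. Of the genes above the floor, 13.0% were lower by as much or more, and of genes at 12 or above, 8.05%. For Fcgr3 these shares were 12.1% and 7.22%. Fcgr2b and Fcgr3 are known to be close copies in the part that encodes the antibody-binding domains; their probe sets gave different values, and whether they share signal was not tested.

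Set against the inhibitory receptor, the activating side depended on the receptor chosen. The difference of Fcgr4 was 0.46 above that of Fcgr2b, equal to a 1.37-fold shift of the Fcgr4 to Fcgr2b ratio towards Fcgr4 in LysM (+). For Fcer1g the same comparison gave 0.36 (1.28-fold), and for Fcgr1 it gave 0.22 (1.16-fold). For Fcgr3 it gave -0.02, so the ratio of Fcgr3 to Fcgr2b was alike on the 2 arrays. The mean of Fcgr1, Fcgr3 and Fcgr4 relative to Fcgr2b was 0.22, a 1.16-fold shift. These comparisons of differences are not altered when a constant is added to all values of an array, and no level of a probe set is set against another. Since each rests on 1 array per genotype, no error can be given for them.

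**Figure D2:**
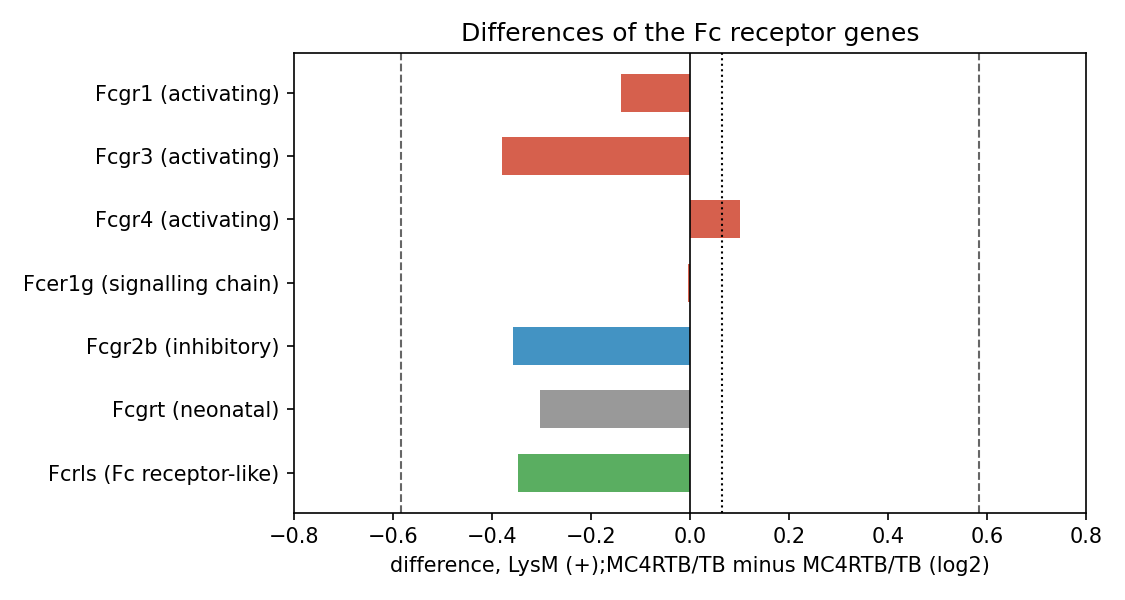
Differences (LysM (+);MC4RTB/TB minus MC4RTB/TB, log2, horizontal axis) of the 7 Fc receptor genes by role; dashed lines mark 1.5-fold in either direction and the dotted line the median difference of 0.07 over all genes above the floor. Fcgr3, Fcgr2b, Fcgrt and Fcrls lie between -0.38 and -0.30, whereas Fcgr1, Fcer1g and Fcgr4 lie between -0.14 and 0.10.

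The neonatal receptor gene was lower in LysM (+), whereas its partner was not. Fcgrt had 14.18 in LysM (+) and 14.49 in TB/TB, a difference of -0.30 or 1.23-fold lower, and 16.3% of genes above the floor were lower by as much or more. B2m, which encodes beta 2 microglobulin, had 19.08 in LysM (+) and 19.03 in TB/TB, a difference of 0.05, also near the top of the scale. The mean of Fcgr1, Fcgr3 and Fcgr4 relative to Fcgrt was 0.16, a 1.12-fold shift towards the activating receptors. In the list of FcRn partner and recycling genes, the median difference was 0.01 over 13 measured members. Of the 12 that reached the floor, 0 passed 1.5-fold upwards, beside 10.9% of all genes above the floor. Downwards 2 did, or 16.7%, beside 5.16% of all genes above the floor. The 2 were Myo5a, an unconventional myosin that carries vesicles on actin, at 14.07 in LysM (+) and 14.75 in TB/TB, and Rab4a, a small GTPase of early recycling endosomes. Rab4a, at 5.94 in LysM (+) and 6.57 in TB/TB, was within the range of the background controls on both arrays, so its 1.55-fold lower value is not exact, and it was no longer counted after quantile normalization or loess.

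Fcrls, an Fc receptor-like scavenger receptor gene of the mouse that is widely used as a marker of microglia, had 15.60 in LysM (+) and 15.94 in TB/TB. The difference was -0.35 or 1.27-fold lower, and 13.6% of genes above the floor were lower by as much or more. Fcrls therefore stood with Fcgr2b, Fcgr3 and Fcgrt in size and direction. At a smaller threshold, a difference of 0.32 on the log2 scale, Fcgr2b, Fcgr3 and Fcrls were lower and no member was higher, that is 3 of 7 lower, against 15% of genes above the floor and 9.18% of genes at 12 or above, and 0 of 7 higher, against 25.5% of genes above the floor. Fcgrt lay just short of this threshold. The members were not chosen by these values, but they and the threshold were set with earlier results of these data known.

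Other scalings of the arrays kept the sign of 6 of the 7 differences. With centring on the median difference, quantile normalization and loess, the Fcgr3 difference lay between -0.38 and -0.34, that of Fcgr2b between -0.43 and -0.35, that of Fcrls between -0.45 and -0.34 and that of Fcgrt between -0.37 and -0.30. Fcgr1 stayed between -0.18 and -0.13. Fcgr4 stayed positive, between 0.02 and 0.11. Fcer1g turned positive under each of these 3 scalings and reached 0.13 with quantile normalization, so its sign is not settled.

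**Figure D3:**
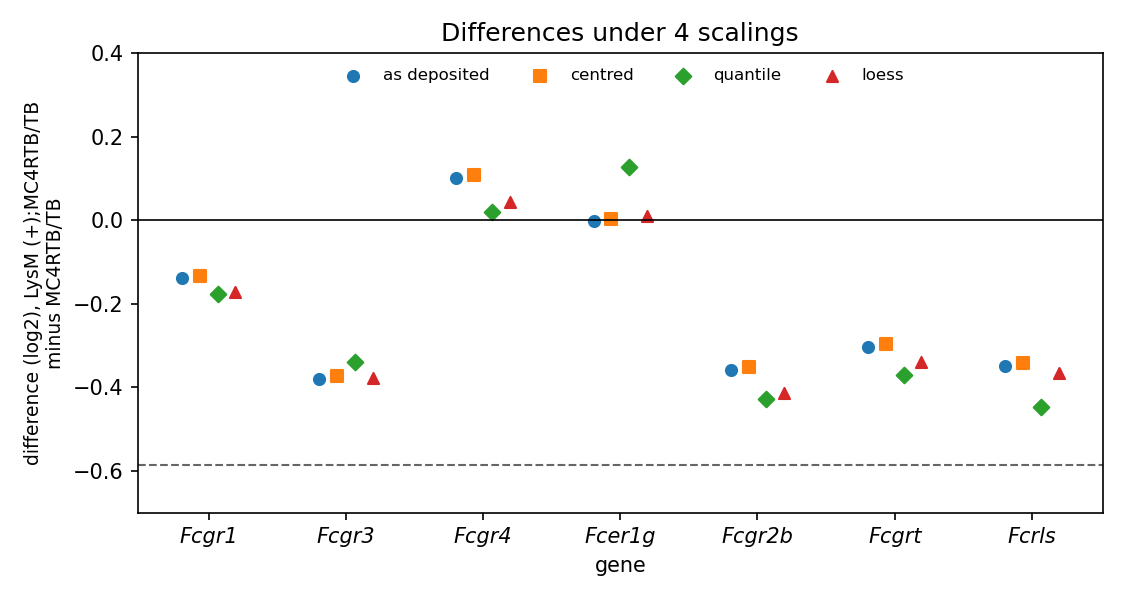
Differences (LysM (+);MC4RTB/TB minus MC4RTB/TB, log2, vertical axis) of the 7 Fc receptor genes in the deposited values and after centring, quantile normalization and loess; the dashed line marks 1.5-fold lower. Fcgr3, Fcgr2b, Fcgrt and Fcrls are negative under all 4 scalings shown, Fcgr4 is positive under all 4, and Fcer1g lies at or near zero in 3 and at 0.13 with quantile normalization.

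Other Fc receptor genes were mostly dim. Of 14 measured genes in this list, 5 reached the floor and 0 passed 1.5-fold in either direction, beside 16.1% of all genes above the floor. The IgE receptor genes Fcer1a and Ms4a2, and Fcamr, Fcmr, Pigr, Fcrla, Fcrlb, Fcrl5 and Fcrl6, were below the floor on both arrays. Of the genes above it, Trim21, which encodes a cytosolic antibody receptor, had 8.36 in LysM (+) and 8.10 in TB/TB, and the Fc receptor-like gene Fcrl1 had 8.11 in LysM (+) and 8.08 in TB/TB. Lgals3, the gene of the IgE-binding lectin galectin 3, had 16.61 in LysM (+) and 16.98 in TB/TB, a difference of -0.38. Fcer2a and Fcgbp, at 6.66 and 6.27 in LysM (+) and 6.73 and 6.09 in TB/TB, lay within the background control range.

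Receptors that use the FcR gamma chain or the related ITAM adaptor DAP12 (Tyrobp) went both ways. Of 11 list members above the floor, which include the adaptor gene Tyrobp itself, 1 passed 1.5-fold upwards and 3 downwards in LysM (+). These are 9.09% and 27.3%, beside 10.9% and 5.16% of all genes above the floor. The median difference over 15 measured members was -0.09. Clec4n, which encodes the fungal mannan receptor dectin-2, had 12.17 in LysM (+) and 12.97 in TB/TB, 1.74-fold lower. Clec4e, which encodes Mincle, a receptor for mycobacterial glycolipid, had 9.90 in LysM (+) and 10.64 in TB/TB, 1.67-fold lower. Both are lectin receptors that signal through the FcR gamma chain. Their relative Clec4d had 15.24 in LysM (+) and 15.28 in TB/TB. Tarm1, another receptor of the FcR gamma chain, had 7.24 in LysM (+) and 6.01 in TB/TB; this was the member counted as higher, but its TB/TB value was below the floor and within the background control range, so no fold is given. Trem1, which pairs with DAP12, was 1.73-fold lower, at 5.77 in LysM (+) and 6.56 in TB/TB, values within the background control range. Tyrobp itself had 16.48 in LysM (+) and 16.51 in TB/TB, so both adaptor genes were level between the arrays.

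In the list of ITAM signalling genes, which act downstream of the activating receptors, 28 members reached the floor, of which 2 passed 1.5-fold upwards and 1 downwards. These are 7.14% and 3.57%, beside 10.9% and 5.16% of all genes above the floor. Over the 29 measured members the median difference was -0.03. Syk, the kinase that the FcR gamma chain recruits, had 13.56 in LysM (+) and 14.04 in TB/TB, a difference of -0.48 that is 1.40-fold lower and short of the threshold. The Src family kinase gene Fyn had 9.16 in LysM (+) and 8.32 in TB/TB, 1.79-fold higher. The catalytic subunit genes of phosphoinositide 3-kinase were split, with Pik3cb 1.51-fold higher, at 12.45 in LysM (+) and 11.85 in TB/TB, and Pik3cd 1.53-fold lower, at 8.46 in LysM (+) and 9.08 in TB/TB; Pik3cb was no longer past 1.5-fold after quantile normalization or loess. Plcg2, the phospholipase gene of this pathway, had 11.78 in LysM (+) and 11.84 in TB/TB.

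On the inhibitory side, all 23 members reached the floor, of which 2 passed 1.5-fold upwards and 1 downwards, with a median difference of -0.08. These are 8.70% and 4.35%, beside 10.9% and 5.16% of all genes above the floor. Inpp5d, which encodes the SHIP-1 phosphatase recruited by Fc gamma receptor IIb, had 14.53 in LysM (+) and 14.70 in TB/TB. Ptpn6, which encodes the phosphatase SHP-1, had 14.55 in LysM (+) and 14.44 in TB/TB. The first was 1.12-fold lower and the second 1.08-fold higher. Cd72, an ITIM receptor gene, had 16.69 in LysM (+) and 15.72 in TB/TB, 1.97-fold higher, and the adaptor gene Dok2 had 14.99 in LysM (+) and 14.34 in TB/TB, 1.57-fold higher. Cd33, a sialic acid receptor gene, had 8.85 in LysM (+) and 9.71 in TB/TB, 1.82-fold lower.

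Genes of the phagocytic cup and of the oxidative burst act after receptor engagement. Of 28 actin and cup genes above the floor, 2 passed 1.5-fold upwards in LysM (+) and 0 downwards. That is 7.14% higher beside 10.9% of all genes above the floor, and 0 lower beside 5.16%. The median difference over 30 measured members was 0.08. Pla2g4a, the cytosolic phospholipase A2 gene, had 10.06 in LysM (+) and 8.43 in TB/TB, 3.09-fold higher. Myo10, a myosin of filopodia and the phagocytic cup, had 10.17 in LysM (+) and 9.42 in TB/TB, 1.68-fold higher. In the NADPH oxidase list 0 of 6 members were past 1.5-fold in either direction, beside 16.1% of all genes above the floor. The median difference of the list was -0.12. The 2 widest apart there were Ncf4, a cytosolic oxidase subunit gene, at 14.67 in LysM (+) and 14.98 in TB/TB, and Ncf1, another such subunit, at 15.05 in LysM (+) and 15.22 in TB/TB.

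**Figure D4:**
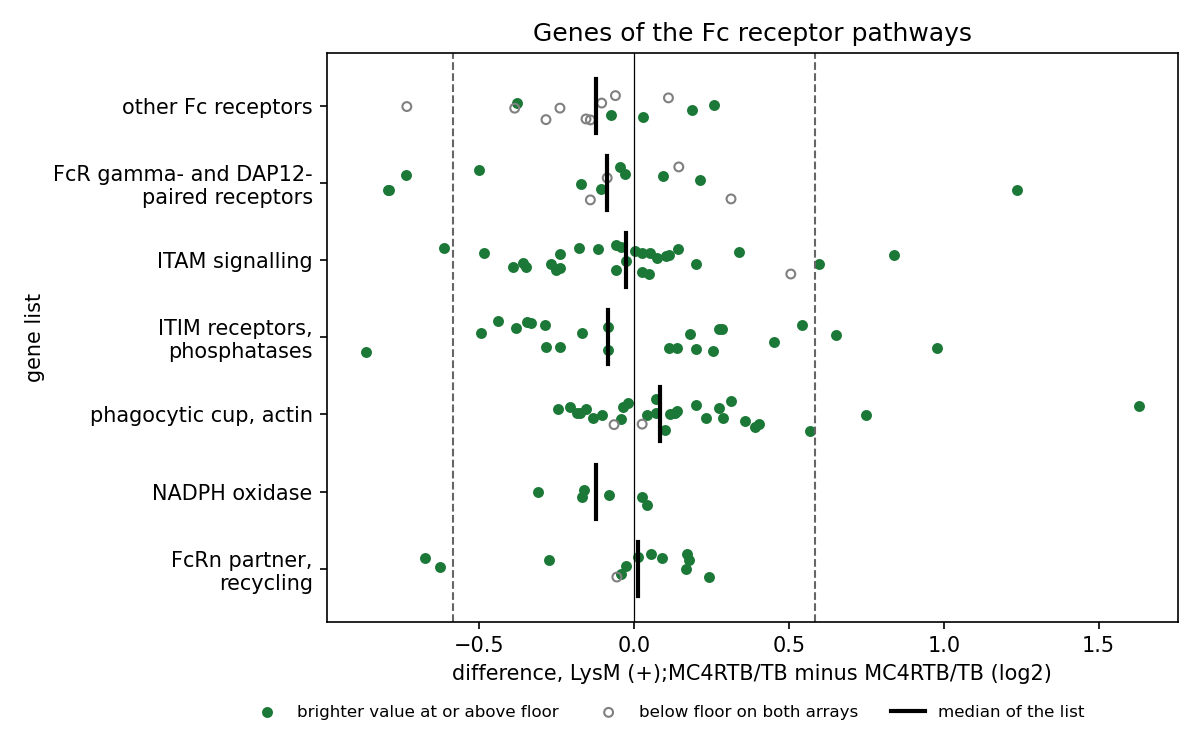
Differences (LysM (+);MC4RTB/TB minus MC4RTB/TB, log2, horizontal axis) of the genes in 7 lists related to Fc receptors; each point is a gene, open points are below the floor on both arrays, black bars are list medians and dashed lines mark 1.5-fold. Medians lie between -0.12 and 0.08, and the point farthest to the right is Pla2g4a at 1.63; Tarm1, at 1.24, rests on a background-level MC4RTB/TB value.

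Of 8 measured genes for factors described at Fc receptor genes, 0 were past 1.5-fold in either direction, beside 16.1% of all genes above the floor. The median difference was -0.13. Spi1, which encodes PU.1, had 18.38 in LysM (+) and 18.33 in TB/TB. Irf8 had 10.58 in LysM (+) and 10.79 in TB/TB, and Irf1 had 10.90 in LysM (+) and 11.09 in TB/TB; both encode interferon regulatory factors. Of 12 genes for JAK kinases and for receptors of cytokines and complement fragments known to change Fc receptor levels, 2 passed 1.5-fold upwards and 0 downwards. That is 16.7% higher beside 10.9% of all genes above the floor, and 0 lower beside 5.16%. The 2 were the complement C5a receptor genes C5ar1, at 14.55 in LysM (+) and 13.90 in TB/TB, and C5ar2, at 7.92 in LysM (+) and 7.13 in TB/TB. The interferon gamma receptor genes Ifngr1 (14.54 in LysM (+), 14.56 in TB/TB) and Ifngr2 (13.25 in LysM (+), 13.32 in TB/TB) were level between the arrays.

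The labelled cell type was checked against its markers, and other cell types that carry Fc receptors were checked with it. All 10 measured macrophage markers were above the floor on both arrays, among them Adgre1 (17.01 in LysM (+), 17.24 in TB/TB) and Csf1r (17.69 in LysM (+), 17.89 in TB/TB). Of the 10, 0 were past 1.5-fold, beside 16.1% of all genes above the floor. By some amount 7 of the 10 were lower, beside 42.9% of genes above the floor. The 7 include Lyz2, the LysM locus itself, at 18.86 in LysM (+) and 19.04 in TB/TB. The median difference of the markers was -0.19, beside 0.07 over the genes above the floor. The widest apart were Mertk, an apoptotic cell receptor gene, at 12.41 in LysM (+) and 12.98 in TB/TB (1.49-fold lower), and Mpeg1, which encodes a pore-forming protein, at 16.47 in LysM (+) and 16.85 in TB/TB. Mertk was past 1.5-fold lower after quantile normalization (1.57-fold) and loess (1.54-fold). Neutrophils and monocytes express Fcgr3, Fcgr4 and Fcer1g as well. Of 10 neutrophil markers above the floor 5 passed 1.5-fold upwards in LysM (+) and 0 downwards, or 50% higher beside 10.9% of all genes above the floor. The granule protein gene Ltf had 9.69 in LysM (+) and 8.31 in TB/TB, and the protease gene Mmp8 had 9.23 in LysM (+) and 8.25 in TB/TB. The other 3, Elane, Retnlg and Cxcr2, had 7.64, 7.62 and 6.74 in LysM (+) against 6.46, 6.29 and 6.03 in TB/TB, so their TB/TB values, and that of Cxcr2 on both arrays, lay within the background control range. Of the other markers above the floor, S100a8, S100a9 and Ngp were 1.23-, 1.42- and 1.32-fold higher in LysM (+). Mpo was 1.23-fold lower and Csf3r, the G-CSF receptor gene, 1.48-fold lower. Csf3r was past 1.5-fold lower after quantile normalization and loess. The 11 measured neutrophil markers summed to 112.3 in LysM (+) and 106.4 in TB/TB on the log2 scale. Of 6 monocyte markers 1 was at least 1.5-fold higher, or 16.7% beside 10.9% of all genes above the floor, and 0 lower. This was Cx3cr1, at 9.15 in LysM (+) and 7.25 in TB/TB. Treml4 was next, at 6.18 in LysM (+) and 5.61 in TB/TB, within the background control range, and passed 1.5-fold after quantile normalization and loess. By some amount 5 of the 6 were higher and 1 was lower, whereas 42.9% of genes above the floor were lower. Nr4a1 was lower, at 6.42 in LysM (+), within the background control range, and 6.91 in TB/TB. The 6 summed to 51.2 in LysM (+) and 48.1 in TB/TB. No marker is at zero on this scale, and the part of these cells in the Fc receptor differences was not tested. The B cell genes Cd79a, Ms4a1 and Pax5 were below the floor on both arrays, as were all 8 NK cell genes; of 7 measured B cell genes 2 reached the floor, Blk and Cd22, and all 7 lay within the background control range. Of 9 mast cell and basophil genes 1 reached the floor. This was Hdc, at 8.06 in LysM (+) and 8.65 in TB/TB, 1.51-fold lower and so just past the threshold. Of all genes above the floor, 5.16% were at least 1.5-fold lower. Of 7 dendritic cell genes 2 reached the floor, Siglech and Ccr7, with 0 past 1.5-fold, beside 16.1% of all genes above it.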

How the data were processed

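The authors deposited values per probe set, taken here as log2. The submitters' processing notes name RMA (background correction, normalization between arrays, summary of probes) and Affymetrix Expression Console, without versions or a genome build. No source states the log base, which was read as 2 because RMA uses it. Values reach 19.51, higher than is usual for RMA, so every fold depends on this reading. Arrays give no read depth; their number limits the precision.

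Groups were taken from the genotype label. Of 28846 probe sets, 19572 had 1 gene symbol and 0 had several; all 19572 matched the RefSeq gene table of GRCm38.p6 by Entrez ID, covering 19505 genes. Probe sets of a gene were averaged. With 1 array per group no test was run. Alternatives were centring, quantile normalization, loess (span 0.4), the brightest probe set, other floors and other folds. Counting was tested on simulated data. Named genes are all members, the other Fc receptors, list members past 1.5-fold or, where fewer than 2 were, the 2 widest apart, partners of the members and their chromosome neighbours. Adgre1, Csf1r, Lyz2, Csf3r, S100a8, S100a9, Ngp, Mpo, Nr4a1, Cd79a, Ms4a1, Pax5, Clec4d, Plcg2, Spi1, Ifngr1 and Ifngr2 fall outside this rule and were chosen after their values were seen. With 2 arrays no gene could be named for likeness of pattern. The members were taken by gene symbol and not by these values, but they and the lists were chosen with earlier results of these data known. Python 3.11.15, pandas 2.3.3 and statsmodels 0.14.6 were used.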

Additional observations from a re-analysis of the deposited data

How the results depend on the processing

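No replicate exists, so a value was called moved when a setting shifted it by at least 0.1 on the log2 scale. Of the member differences, that of Fcer1g moved with quantile normalization, to 0.1263, against -0.0033 in the deposited values; the cause was not tested. The number of members lower was 3 at the threshold of 0.32 on the log2 scale, which lets smaller differences count, and 0 at 1.5-fold, at 2-fold and with every other floor or scaling tried. The change of the activating receptors relative to Fcgr2b or Fcgrt, the median of the 7 genes and the median of each list shifted by less than 0.1 under centring, quantile normalization, loess and the brightest probe set. For the 16 further lists, 32 counts of higher or lower members were made. Of these, 5 changed by any number with quantile normalization, 5 with loess, 10 at 2-fold, 14 at the smaller threshold, 1 with no floor, 3 with the floor at the highest background control and 0 with centring or the brightest probe set. Pik3cb and Rab4a were no longer past 1.5-fold with quantile normalization or loess, and Mertk, Csf3r and Treml4 then were. Summed over the lists, a gene in 2 lists counting in each, 15 members were higher and 8 lower; at 2-fold 6 were higher and 0 lower, and at the smaller threshold 27 were higher and 27 lower. No paired analysis was possible because each group has 1 array. Signal over background limits the dim Fc receptor genes, not the 7 members.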

Other observations

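Among the chromosome neighbours of the Fc receptor genes, the widest apart were histone genes next to Fcgr1. Among the 4 nearest measured genes on each side of each member, 38 genes were not members, and 24 of them reached the floor. Of these, 5 passed 1.5-fold upwards in LysM (+) and 0 downwards. Of all genes above the floor, 10.9% passed upwards and 5.16% downwards. Histone genes made up 4 of the 5. The 4 measured genes before Fcgr1 on chromosome 3 are histone genes, which package newly made DNA. H2bc18, the nearest, had 12.06 in LysM (+) and 9.56 in TB/TB, 5.62-fold higher. H4c14, at 12.61 in LysM (+) and 10.49 in TB/TB, was 4.36-fold higher. H3c13 and H3c14 were 6.43-fold and 7.11-fold higher; as histone gene copies are almost identical, their probe sets may pick up each other's transcripts. Fcgr1, beside them, differed by -0.14, and Txnip, the thioredoxin-interacting protein gene on its other side, had 14.90 in LysM (+) and 15.01 in TB/TB.

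On chromosome 1, where Fcgr2b, Fcgr4, Fcgr3 and Fcer1g lie, Pcp4l1, between Fcgr3 and Fcer1g, had 9.41 in LysM (+) and 7.78 in TB/TB, 3.10-fold higher, while Sdhc, a respiratory chain gene in the same interval, had 10.63 in LysM (+) and 10.57 in TB/TB. Fcgr4 lies between Fcgr2b and Fcgr3 and was the member of that cluster with a higher value. Next to Fcrls on chromosome 3, Cd5l, a scavenger protein gene of macrophages, had 10.28 in LysM (+) and 10.84 in TB/TB, 1.47-fold lower. Beside Fcgrt on chromosome 7, Flt3l had 6.65 in LysM (+) and 6.18 in TB/TB, within the background control range.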
